A study of Mus musculus with 16 samples.

Results

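The 4 genes described here are Runx1, Runx2, Runx3 and Cbfb, 4 of 21938 protein-coding mouse genes in the annotation used. They were taken by name, as the 3 RUNX transcription factor genes and the gene of their shared binding partner. Peaks of chromatin immunoprecipitation followed by sequencing (ChIP-seq) were collected at each alternative promoter, in each gene body and within 100 kb of each transcription start site (TSS). A promoter is the window within 3 kb of a TSS, and windows of a gene that overlap were joined into 1 promoter, which left 7 promoters for the 4 genes.

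RUNX proteins bind DNA through the Runt domain, at a core that reads TGTGGT, or ACCACA on the other strand. CBFβ, the product of Cbfb, does not contact DNA itself but strengthens the binding of all RUNX proteins. Runx1 is required for blood stem cells, Runx2 for bone-forming cells, and Runx3 acts in T cells, sensory neurons and epithelia. Each RUNX gene has a distal promoter, P1, and a proximal promoter, P2, which lie far apart and give proteins with different amino ends.

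EWSR1::ATF1, a fusion protein that keeps the bZIP region of ATF1 and with it the ability to bind DNA, drives clear cell sarcoma (CCS), a cancer of soft tissue. All 16 samples were mouse CCS tumours or their input chromatin and all carried the EWSR1::ATF1 genotype. There were 4 samples for V5, 4 for RNAPOL2 (phosphorylated RNA polymerase II), 4 for H3K27ac (an acetylation of histone H3 at active promoters and enhancers) and 4 inputs. The mice were of mixed 129/SvJ and C57Bl/6 background. The fusion was a V5-tagged human type 1 cDNA at Rosa26 behind a loxP-flanked stop, switched on by injecting TATCre protein into the hindlimb, so every group shares the transgene, the Cre exposure and the enhanced green fluorescent protein that follows the cDNA. No tissue without the fusion was analysed here. The tumours were processed whole, so a weak peak in all cells and a strong peak in a few cells cannot be told apart.

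Each antibody is represented by 1 peak list with no value per sample, so there is no replicate error, and no test was made. A peak carries a score, a whole number without a unit that can be compared only within its list, and rank 1 is the highest score. The V5 list held 10665 peaks (median score 230, quartiles 122 and 488, highest 23478). The RNAPOL2 list held 20375 peaks (median 246, quartiles 71 and 943, highest 23501) and the H3K27ac list 27552 (median 212, quartiles 84 and 732, highest 12513). Intervals given below are Wilson 95% intervals and cover counting error only.

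All 4 genes had RNAPOL2 and H3K27ac at a promoter, whereas V5 was found at the promoters of Runx1 and Runx2 and not at those of Runx3 and Cbfb. The absence of V5 refers to this list, since a larger V5 set described in the study was not analysed here. In the whole annotation, 16.6% of coding genes had a V5 promoter peak, 53.5% an RNAPOL2 promoter peak and 58.6% an H3K27ac promoter peak. Peaks of all 3 lists were found at Runx1 and Runx2, as at 15.9% of coding genes. RNAPOL2 and H3K27ac without V5 were found at Runx3 and Cbfb, as at 36.3% of coding genes. Counted by promoter, V5 was at 3 of 7 (10.5% of all coding promoters), RNAPOL2 at 5 of 7 (36.0%) and H3K27ac at 6 of 7 (39.9%).

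**Figure D1:**
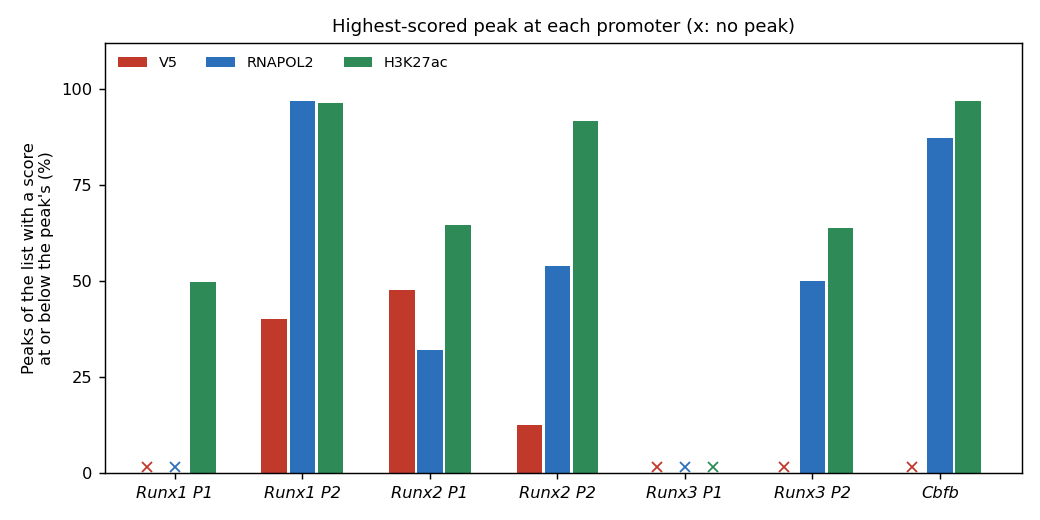
Highest-scored peak at each of the 7 promoters, as the share (%) of its list with a score at or below it (vertical axis, linear from 0), for V5 (red), RNAPOL2 (blue) and H3K27ac (green); a cross means no peak. Runx1 P2 and Cbfb carry the highest RNAPOL2 and H3K27ac bars, V5 bars stand at 3 promoters and stay below 50%, and Runx3 P1 has 3 crosses.

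Runx1 (ENSMUSG00000022952.17, chr16:92601466-92826149, minus strand, 225 kb) showed different marks at its promoters. P1, with its first TSS at position 92826149 of chromosome 16, held an H3K27ac peak of score 203 (rank 13850) and no V5 or RNAPOL2 peak. P2 begins 129 kb downstream, at position 92697328. It held an RNAPOL2 peak of score 3222 (rank 673 of 20375) and an H3K27ac peak of score 2913 (rank 993 of 27552). The H3K27ac peak was 6850 bp wide, a width reached by 1.40% of the list, and the RNAPOL2 peak was 4480 bp wide, a width reached by 4.25%. The V5 peak at P2 was of modest score, 174 (rank 6381 of 10665), and its middle lay 50 bp downstream of the nearest TSS. Among coding genes with a promoter peak of the same list, Runx1 ranked 769 of 11738 for RNAPOL2, 1131 of 12846 for H3K27ac and 1948 of 3640 for V5. The V5 peak at P2 overlapped a Runx1 exon, and its AP1 motif, the TGAGTCA to which JUN and FOS dimers bind, lay 492 bp from the peak middle. That motif is shown in capitals, read on the coding strand, at chr16:92696770-92696796 (GRCm38, minus strand).
Runx1 P2, AP1 motif: gactctgggcTGACTCActcaaccaat

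Runx2 (ENSMUSG00000039153.16, chr17:44495987-44814797, minus strand, 319 kb) carried V5 at both promoters. P1, at position 44814797 of chromosome 17, held a V5 peak of score 213 (rank 5597), an RNAPOL2 peak of score 89 (rank 13881) and an H3K27ac peak of score 416 (rank 9794). P2 lies 78.1 kb downstream, at position 44736648, and held V5 at 81 (rank 9345), RNAPOL2 at 319 (rank 9379) and 157, and H3K27ac at 1913 (rank 2323). V5 therefore scored higher at P1, while RNAPOL2 and H3K27ac scored higher at P2. The V5 peak middles lay 43 bp upstream of the nearest TSS at P1 and 34 bp upstream at P2, and 31.4% of all V5 promoter peaks had their middle within 50 bp of a TSS. The window of Runx2 P2 also holds the start of the antisense transcript Runx2os1, and ChIP-seq has no strand, so those peaks cannot be assigned to either transcript. V5 at more than 1 separate promoter was found for 2.03% of the 8278 coding genes that have at least 2, and V5 at 1 or more of them for 23.4%. RNAPOL2 at more than 1 promoter was found for 14.7% of these genes and H3K27ac for 16.9%.

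The V5 peak at Runx2 P1 (chr17:44814461-44815220) held 5 RUNX cores, a number reached by 0.572% of all V5 peaks, together with 1 AP1 motif 179 bp from the peak middle and 1 TGACCTCA 125 bp from it. The 250 bases before the first TSS are shown because they hold the AP1 motif and a RUNX core together, which 0.714% of all coding promoters do over the same length. AP1, with or without the core, was found in 4.38% of these upstream stretches and the RUNX core, with or without AP1, in 15.0%. Capitals mark the AP1 motif and the RUNX core (read as ACCACA) in chr17:44814798-44815047 (GRCm38, minus strand), which ends at the base before the TSS.
Runx2 P1, upstream: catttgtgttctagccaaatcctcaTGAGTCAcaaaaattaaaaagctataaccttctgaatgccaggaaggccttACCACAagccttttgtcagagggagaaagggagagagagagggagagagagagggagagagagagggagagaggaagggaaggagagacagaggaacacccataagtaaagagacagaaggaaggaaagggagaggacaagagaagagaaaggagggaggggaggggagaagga

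A tandem pair of RUNX cores was shared by the distal promoters of all 3 RUNX genes. The cores start 8 bp apart on the same strand, and each pair is shown because a run of 18 bases, with both cores, was identical in the 3 genes. Capitals mark the cores, read on the coding strand as ACCACA. The stretches lie at chr16:92826025-92826054 (minus strand, exonic) for Runx1, chr17:44814583-44814612 (minus strand, exonic) for Runx2 and chr4:135120503-135120532 (plus strand, upstream of the gene) for Runx3, all in GRCm38.
Runx1 P1: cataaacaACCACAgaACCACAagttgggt
Runx2 P1: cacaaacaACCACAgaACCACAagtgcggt
Runx3 P1: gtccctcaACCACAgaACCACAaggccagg

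The pair lay 103 bp downstream of the first TSS in Runx1, 193 bp downstream in Runx2 and 141 bp upstream in Runx3. Over the same window, 250 bp to each side of the first TSS, 10 of 36693 coding promoters (0.0273%) held such a pair, the 3 distal RUNX promoters included, and neither the P2 promoters nor the Cbfb promoter held it. The Runx2 pair lay inside the V5, RNAPOL2 and H3K27ac peaks of P1, the Runx1 pair inside the H3K27ac peak alone, and the Runx3 pair in no peak of any list. Which RUNX protein, if any, occupied these cores was not measured. Over the whole windows, the RUNX core occurred 1.98 times per kb at Runx2 P1 and 1.67 times per kb at Runx3 P1, densities reached by 1.03% and 2.92% of coding promoters, beside a median of 0.795 per kb. Runx1 P1 had 3.92 per kb, but 17 of its 25 cores lay in a single stretch of 500 bp, while the most in such a stretch was 5 of 13 at Runx2 P1 and 4 of 10 at Runx3 P1. The P2 promoters had 0.638 (Runx1), 0.503 (Runx2) and 0.378 per kb (Runx3), and Cbfb had 0.290 per kb. The pair and these densities were looked at after the sequences had been seen. At Runx2 P1 the counts overlap, since the V5 peak holds both the pair and the core upstream of the TSS. The shares given for Runx2 P1 are therefore not separate.

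Runx3 (ENSMUSG00000070691.10, chr4:135120652-135177990, plus strand, 57.3 kb) had the lowest RNAPOL2 and H3K27ac scores of the 4 genes when each was taken by its highest promoter peak. No list held a peak at P1, at position 135120652 of chromosome 4. P2 lies 31.8 kb downstream, at position 135152496, and held RNAPOL2 peaks of scores 246 (rank 10181) and 32 and an H3K27ac peak of score 397 (rank 10008). Among coding genes with a promoter peak, Runx3 ranked 10222 of 11738 for RNAPOL2 and 9381 of 12846 for H3K27ac. These scores are near the list median for RNAPOL2 and above it for H3K27ac, but most genes with such a promoter peak had a higher one.

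Cbfb (ENSMUSG00000031885.14, chr8:105170674-105217989, plus strand, 47.3 kb) has 1 promoter. It held an RNAPOL2 peak of score 1621 (rank 2601) and an H3K27ac peak of score 3083 (rank 858), the highest promoter H3K27ac score of the 4 genes. Both peaks also lie at the promoter of Gm22063 and over exons of Gm3830, so they cannot be assigned to Cbfb alone. A further H3K27ac peak at the edge of the window scored 29. Among coding genes with a promoter peak, Cbfb ranked 2956 of 11738 for RNAPOL2 and 985 of 12846 for H3K27ac. No V5 peak lay at the promoter or in the body.

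V5 peaks were then counted around each gene to describe sites away from promoters. Runx1 had 5 within 100 kb of a TSS, all inside the gene, and Runx2 had 6 within 100 kb and 9 in the gene body, of which 3 lay beyond 100 kb. Cbfb had 1 within 100 kb and Runx3 had 0. At least 5 V5 peaks within 100 kb were found for 6.15% of coding genes and at least 6 for 3.83%, and 56.0% had at least 1. For gene bodies, at least 5 were found in 0.966% and at least 9 in 0.255% of coding genes. Runx1 and Runx2 are long genes, so coding genes with a body of 50 kb or more were taken as a comparison after the counts were seen. Among these, the shares for bodies were 4.13% and 1.12%. For at least 5 and at least 6 V5 peaks within 100 kb they were 9.45% and 6.35%. The 100 kb windows around all TSSs of a gene were joined, so promoters that lie far apart give a longer region to count.

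**Figure D2:**
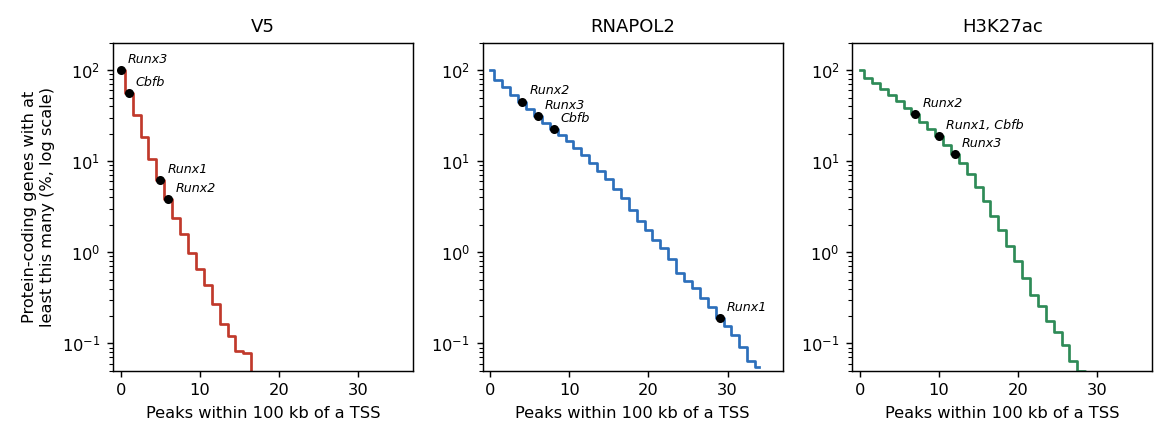
Share (%, log scale) of 21938 protein-coding genes with at least the number of peaks on the horizontal axis within 100 kb of a TSS, for V5, RNAPOL2 and H3K27ac, with the 4 genes as black points. Runx1 stands far to the right for RNAPOL2 (29 peaks, reached by 0.191% of coding genes), and Runx3 has 0 V5 peaks but 12 H3K27ac peaks. Of coding genes with a body of 50 kb or more, 0.459% reach 29 RNAPOL2 peaks.

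Within Runx1, 4 of the 5 V5 peaks formed a group between P1 and P2, and all 4 were intronic. The strongest, chr16:92773441-92774250, had a score of 484 (rank 2672) and its middle lay 52.3 kb downstream of the first TSS. The next, chr16:92777711-92778690, scored 289 (rank 4261) and lay at 47.9 kb. The other two scored 59 (rank 9952, at 42.3 kb) and 103 (rank 8478, at 37.5 kb). The first 3 overlapped H3K27ac peaks of scores 237, 189 and 215, the peak of score 103 did not, and none of the 4 overlapped RNAPOL2.

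The strongest Runx1 site held 3 copies of TGACG at 189, 25 and 1 bp from the peak middle. TGACG is the start of the ATF/CREB palindrome TGACGTCA read from either strand. At least 3 copies of TGACG were found in 15.6% of all V5 peaks. The site held no complete palindrome, no AP1 motif and no RUNX core. A stretch of 250 bases that holds all 3, from one side of the peak across its middle, chr16:92773635-92773884 (GRCm38, minus strand), is shown with each TGACG (or CGTCA, its other strand) in capitals.
Runx1 intron, strongest V5 site: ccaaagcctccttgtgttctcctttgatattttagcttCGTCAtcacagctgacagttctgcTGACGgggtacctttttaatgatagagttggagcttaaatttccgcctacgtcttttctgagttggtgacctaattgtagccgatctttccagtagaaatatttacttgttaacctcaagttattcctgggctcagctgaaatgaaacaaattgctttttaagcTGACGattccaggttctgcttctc

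The second Runx1 site held 2 variants of the palindrome, TGAAGTCA and TGACATCA, and 3 RUNX cores. Its stretch from chr16:92778100 to chr16:92778399 (GRCm38, minus strand) is shown because it has the variant nearest the peak middle (146 bp from it) and a RUNX core (77 bp from it), both in capitals.
Runx1 intron, second V5 site: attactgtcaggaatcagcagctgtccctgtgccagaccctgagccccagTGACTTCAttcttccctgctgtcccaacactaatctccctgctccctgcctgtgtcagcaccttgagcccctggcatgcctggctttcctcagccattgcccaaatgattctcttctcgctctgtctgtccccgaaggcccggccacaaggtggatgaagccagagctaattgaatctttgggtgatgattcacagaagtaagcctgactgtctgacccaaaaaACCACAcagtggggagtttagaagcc

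Within Runx2, 7 V5 peaks lay outside the promoters, all intronic, 46.3 to 227 kb downstream of the first TSS. The highest score was 402 (rank 3155), at chr17:44589001-44589580, which overlapped neither RNAPOL2 nor H3K27ac and held 1 RUNX core and no ATF/CREB or AP1 motif. The next was 328 (rank 3827), at chr17:44654261-44654810, the highest Runx2 score within 100 kb of a TSS. The remaining 5 scored 43 to 163. The peak of score 163 overlapped RNAPOL2 of score 54 and H3K27ac of score 401, 1 of score 103 overlapped H3K27ac of score 261, and 3 overlapped neither mark.

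The Runx2 site of score 328 overlapped an H3K27ac peak of score 91 that covers its far end alone. Its sequence is shown because it holds an AP1 motif 126 bp from the middle and a variant of the palindrome, TGAGATCA, 28 bp from it. Both are in capitals in chr17:44654475-44654684 (GRCm38, minus strand).
Runx2 intron, V5 site of score 328: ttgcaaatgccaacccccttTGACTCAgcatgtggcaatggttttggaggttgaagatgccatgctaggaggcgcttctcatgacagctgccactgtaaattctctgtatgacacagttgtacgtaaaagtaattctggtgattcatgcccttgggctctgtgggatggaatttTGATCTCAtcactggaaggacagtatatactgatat

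The Cbfb region held 1 V5 peak, chr8:105254361-105254930, with a score of 113 (rank 8179). It lay at the promoter of B3gnt9, a glycosyltransferase gene whose TSS is 83.6 kb from the nearest Cbfb TSS, with RNAPOL2 of score 1055 and H3K27ac of score 2509. Around Runx3 the nearest V5 peak was 118 kb from a TSS, outside the limit of 100 kb, and its score of 28 (rank 10639 of 10665) was close to the lowest in the list. That peak lay inside an RNAPOL2 peak of score 4738 (rank 243). The nearest V5 peak outside the limit and the gene was at 110 kb for Runx1 (score 428), at 204 kb for Runx2 (score 108) and at 209 kb for Cbfb (score 196).

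Across the 15 V5 peaks in the bodies or within 100 kb, scores ran from 43 to 484 with a median of 132. Of these, 4 were above the list median, which 48.7% of the list exceeded, and 0 of 15 were above the upper quartile, which 25.0% exceeded. A count of 0 of 15 allows a share of up to 20%. All 4 that exceeded the median were distal and intronic. H3K27ac overlapped 10 of the 15 (66.7%, interval 41.7 to 84.8), beside 73.4% of all V5 peaks, and RNAPOL2 overlapped 5 (33.3%, 15.2 to 58.3), beside 42.0%. The 4 V5 peaks at promoters overlapped both marks, which 91.1% (H3K27ac) and 76.3% (RNAPOL2) of all V5 promoter peaks did. Of the 11 distal peaks, 6 overlapped H3K27ac and 1 overlapped RNAPOL2, beside 61.3% and 18.5% of all distal V5 peaks. In each class the share over the whole list lay within the interval for these peaks.

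**Figure D3:**
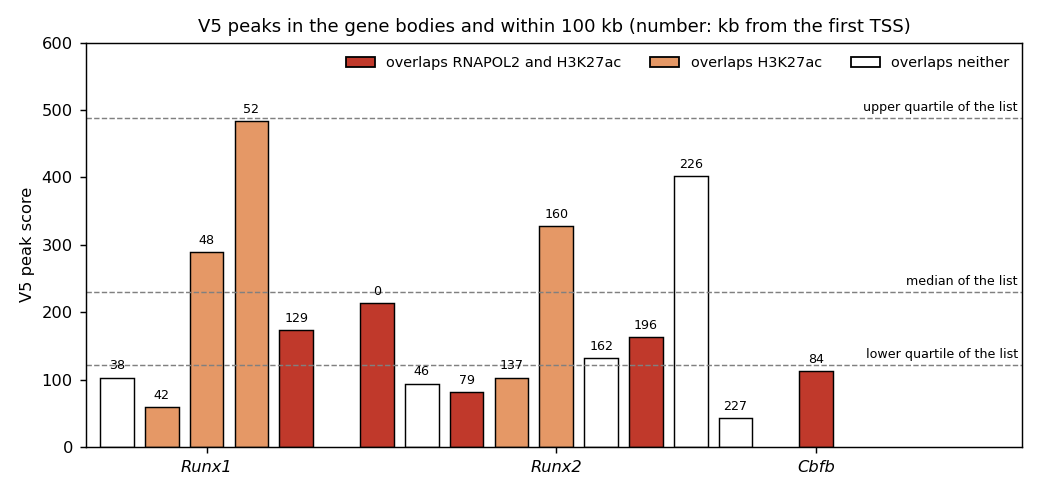
Score (vertical axis, no unit, from 0) of each of the 15 V5 peaks, ordered within each gene by distance from the first TSS (number above each bar, kb), with the colour giving the marks it overlaps and dashed lines the quartiles of the V5 list. The intronic peaks at 52 and 48 kb in Runx1 and at 160 and 226 kb in Runx2 are the 4 above the median line, and none reaches the upper quartile.

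Motifs were counted in the same 15 peaks on both strands. The canonical TGACGTCA was in 0 of 15, which allows a share of up to 20%, and in 8.51% of all V5 peaks. Other sequences of the form TGANNTCA were in 5 (40.3% of all V5 peaks) and AP1 in 5 (26.0%). All AP1 motifs lay 105 bp or more from the peak middle, so the central 200 bp of the peaks held none. The core TGACG, which is also a part of TGACGTCA and was added after the sequences had been seen, was in 7 (70.9%), and the RUNX core in 8 (46.4%). Strings of more than 4 TGA or TCA units with gaps of at most 5 bp were in 0 of 15 (10.2%). Longer peaks hold more motifs by their length alone, and the median width was 610 bp here and 710 bp in the list.

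RNAPOL2 in the gene bodies set Runx1 apart in number of peaks. The Runx1 body held 29 RNAPOL2 peaks, Runx2 5, Cbfb 3 and Runx3 2. At least 29 were found in 0.0957% of coding genes and in 0.419% of those with a body of 50 kb or more, and 53.7% of coding genes had at least 1. All 29 lay from P2 to the gene end, a segment of 98.9 kb of which they covered 67.8%, and 0 lay in the 126 kb between P1 and P2. Beside the promoter peak of 3222, their scores were low, with a median of 54 and a lowest score of 32, and the widest was 7.18 kb. The last, of score 223, reached 1265 bp past the annotated gene end. Among the 29, 4 also lay at the promoter of the overlapping gene Gm26626, and these cannot be assigned to a strand.

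In the other RUNX genes the covered shares after P2 were smaller. RNAPOL2 peaks covered 2.15% of Runx2 before P2 and 1.82% after it. Of the 1.62 kb covered before P2, 1.23 kb was a peak at the promoter of another gene, Supt3. In Runx3, as in Runx1, no RNAPOL2 peak lay between P1 and P2, and 2 peaks covered 5.09% of the segment after P2. Over the whole body the covered share was 29.8% for Runx1, which 6.14% of coding genes and 1.20% of those of 50 kb or more reached, 5.61% for Cbfb, 2.53% for Runx3 and 1.90% for Runx2. In Cbfb, an RNAPOL2 peak of score 127 crossed the gene end and reached 2551 bp past it. A peak over the gene end was found for 9.58% of coding genes, and for neither Runx2 nor Runx3.

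**Figure D4:**
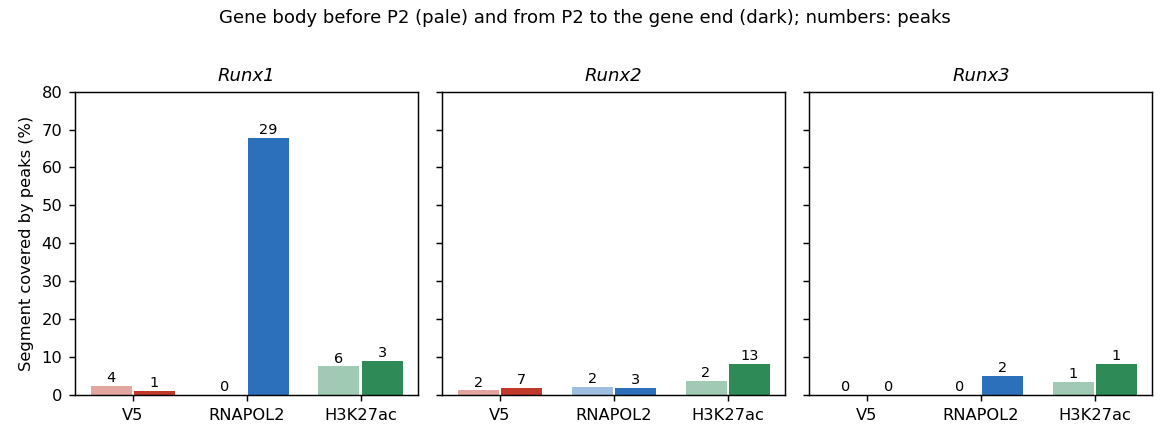
Share (%, linear from 0) of the gene body covered by peaks of each list, from P1 to P2 (pale bars) and from P2 to the gene end (dark bars), for Runx1, Runx2 and Runx3, with the number of peaks above each bar. RNAPOL2 peaks cover 67.8% of Runx1 after P2 and none of it before, and no other bar reaches 10%.

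The highest RNAPOL2 and H3K27ac scores inside Runx2 belonged to another gene's promoter. Supt3, which encodes a subunit of the SAGA coactivator, starts within the Runx2 body on the plus strand, and its promoter held RNAPOL2 at 957 (rank 5048) and H3K27ac at 2870 (rank 1020), with no V5. The neighbours of Cbfb were also marked. D230025D16Rik, with its TSS 53.6 kb away, had the highest RNAPOL2 score of the region, 5441 (rank 159), and Tradd and Fbxl8, whose windows share a peak, had 990. Hsf4, a heat shock factor, had 639. Of the coding genes within 100 kb of the Cbfb TSSs, B3gnt9 alone had V5, and the carboxylesterase genes Ces4a and Ces3b had no promoter peak in any list.

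H3K27ac was spread over all 4 regions. Within 100 kb there were 10 peaks at Runx1, 7 at Runx2, 12 at Runx3 and 10 at Cbfb, and the gene bodies held 9, 15, 2 and 2. At least 12 within 100 kb were found for 12.05% of coding genes, at least 10 for 18.8% and at least 7 for 32.7%, and 81.4% had at least 1. Body counts of at least 9 and at least 15 were reached by 1.11% and 0.260% of coding genes, and by 4.79% and 1.14% of those with a body of 50 kb or more. At Runx3, 10 of the 12 lay outside the gene and away from any promoter, with the highest score, 623 (rank 7657), 99.0 kb from a TSS. At Cbfb, 7 of the 10 lay at promoters of other genes, and 1 lay outside the gene and away from any promoter.

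V5 lay under 4 of 10 H3K27ac peaks at Runx1, 5 of 15 at Runx2, 1 of 10 at Cbfb and 0 of 12 at Runx3, where 27.3% of all H3K27ac peaks overlapped V5. The count of 0 of 12 allows a share of up to 25%. Neighbouring H3K27ac peaks were also joined, over the gap that the study allowed when it stitched super-enhancers, and groups of 3 or more were taken as clusters. Those that overlap a gene body or a promoter window are given first. Runx1 had a cluster of 13.8 kb (chr16:92773001-92786810) with 4 H3K27ac peaks and 3 V5 peaks, which holds the intronic sites printed above. Runx2 had a cluster of 12.2 kb (chr17:44588241-44600460) with 4 H3K27ac peaks and 1 V5 peak, and Cbfb had a cluster of 19.9 kb (chr8:105152701-105172550) around its promoter with 5 H3K27ac peaks and no V5. V5 was thus in 2 of these 3 clusters, and in 62.0% of all 2478 clusters, whose median width was 19.9 kb. A further cluster began within 100 kb downstream of Runx3 (chr4:135234851-135299430, 64.6 kb, 10 H3K27ac peaks) and another downstream of Cbfb (chr8:105253581-105306640, 53.1 kb, 7 H3K27ac peaks). Each held 1 V5 peak, which for Runx3 was the peak of score 28 beyond 100 kb.

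**Figure D5:**
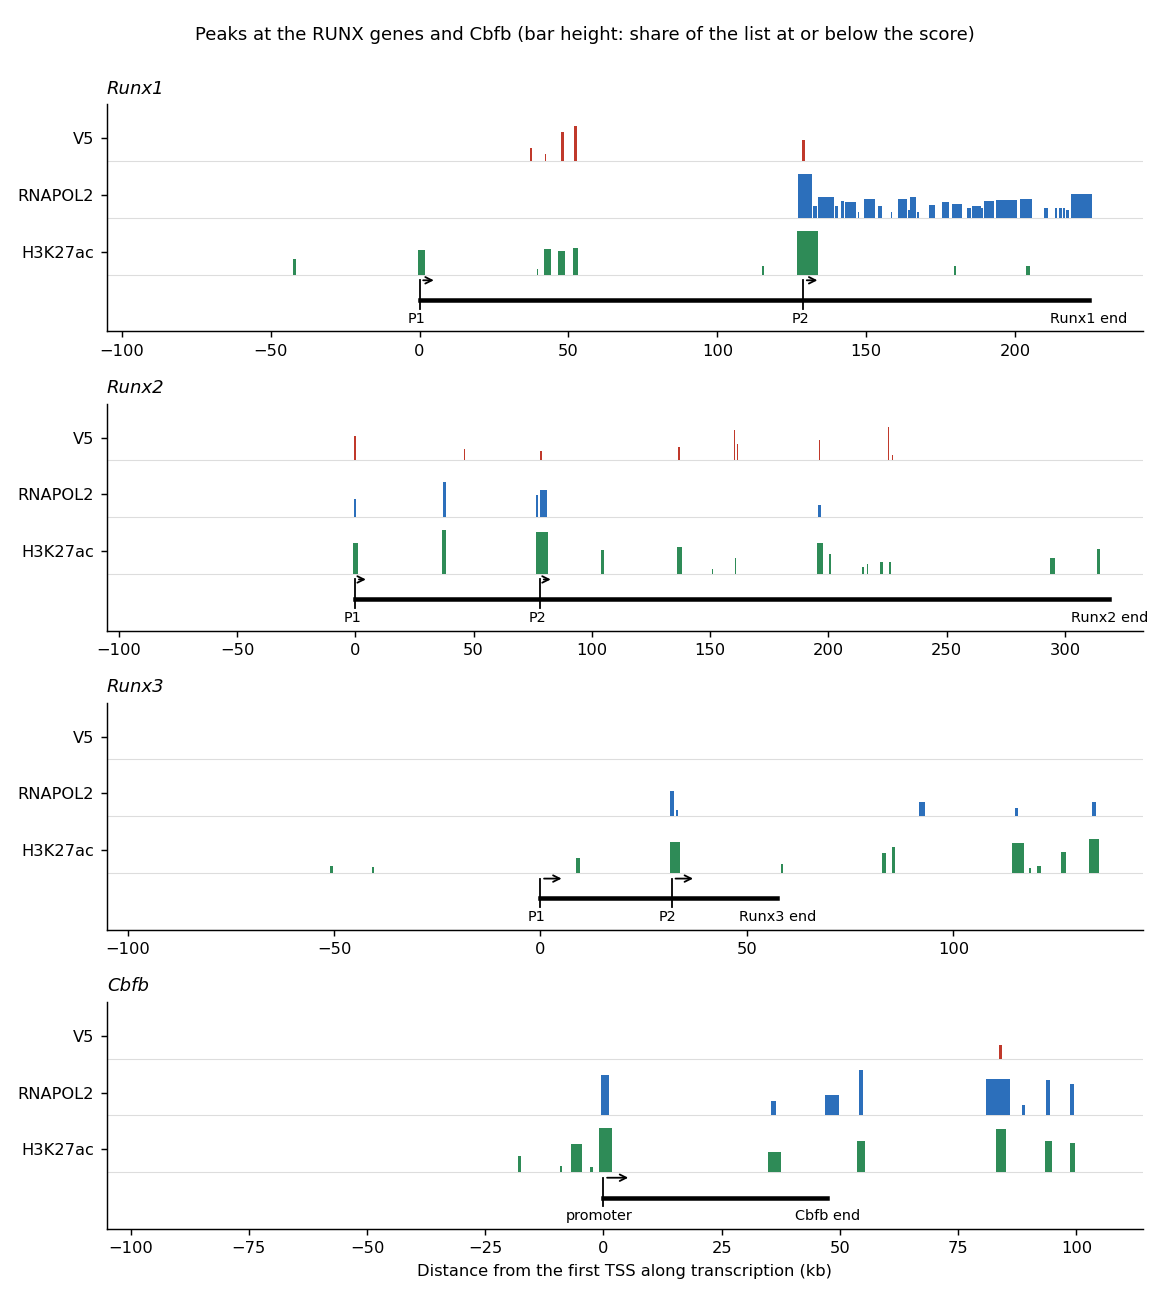
Peaks of the 3 lists at Runx1, Runx2, Runx3 and Cbfb against the distance (kb) from the first TSS along the direction of transcription, with bar height giving the share of the list at or below the peak's score and peaks drawn at least 0.5 kb wide. In Runx1 the red V5 bars stand over green H3K27ac bars near 50 kb and the blue RNAPOL2 bars begin at P2, and the Runx3 panel has no V5 bar.

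Genes that work with RUNX proteins were counted from a list of 34 names, of which 33 were found. The name not found, Tle5, is another name of Aes, which is in the list and was found. These are the corepressors, coactivators and partner factors of RUNX. V5 was at the promoters of 14 (42.4%, beside 16.6% of coding genes), RNAPOL2 at 31 (93.9%, beside 53.5%) and H3K27ac at 32 (97.0%, beside 58.6%). Among the higher V5 promoter scores were those at Tle3, a Groucho corepressor that binds the end of RUNX proteins (428, rank 2964), and Smad1, a bone morphogenetic protein effector (326, rank 3833). Gata1, an erythroid factor, was the only listed gene without a promoter peak in any list. All 14 with V5 also had both other marks. Over all coding genes, 3484 had promoter peaks of all 3 lists, and 7959 had RNAPOL2 and H3K27ac without V5. The share of 16.6% is therefore a low reference for a list whose genes nearly all carry both marks.

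Known targets of the RUNX proteins were counted in the same way, beside the same shares over all coding genes (16.6% for V5, 53.5% for RNAPOL2 and 58.6% for H3K27ac). Of 16 skeletal targets of RUNX2, 2 had V5 at a promoter, 6 had RNAPOL2 (37.5%), 9 had H3K27ac (56.3%) and 7 had no peak in any list. Their V5 and H3K27ac counts are near those shares. The 2 with V5 were Fgfr2, a fibroblast growth factor receptor (890, rank 1413), and Alpl, the bone alkaline phosphatase (76, rank 9387). Of 15 blood targets of RUNX1 and RUNX3 that were found of 16 listed, 1 had V5 (Zbtb7b, a T helper cell factor, 76), 3 had RNAPOL2 (20%), 7 had H3K27ac (46.7%) and 8 had no peak in any list.

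Because RUNX genes are also active in blood and bone cells, promoter peaks of marker genes of cell types that a limb tumour can hold were counted, beside 16.6% (V5), 53.5% (RNAPOL2) and 58.6% (H3K27ac) of all coding genes. Myeloid markers had V5 at 0 of 10, RNAPOL2 at 5 and H3K27ac at 9, lymphoid markers 0, 3 and 5 of 9, and osteochondral markers 2, 3 and 5 of 8. Fibroblast markers had 0, 4 and 7 of 8, endothelial markers 0, 2 and 4 of 6 and skeletal muscle markers 0, 1 and 0 of 10. Of the 8 melanocyte markers, which human CCS tumours often express, Dct had V5 (218), Pmel and Mitf had RNAPOL2 (1281 and 191) and H3K27ac (822 and 372), and Tyr, Tyrp1, Mlana, Sox10 and Kit had no promoter peak. The osteochondral markers with V5 were Sox9, a cartilage factor (94), and Alpl (76). No list had a promoter peak at Itgam of the myeloid markers, at Cd8a, Cd79a and Nkg7 of the lymphoid, at Bglap, Ibsp and Col10a1 of the osteochondral, at Lum of the fibroblast, or at Tek and Emcn of the endothelial markers. The myeloid list shares Spi1 and Csf1r with the blood targets, the lymphoid list shares Cd4 and Cd8a with them, and the osteochondral list shares Sp7, Bglap, Ibsp, Alpl and Col10a1 with the skeletal targets, as the fibroblast list does Col1a1 and Col1a2. Which cells of the tumours carried the RNAPOL2 and H3K27ac peaks at the RUNX genes was not tested.

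Coding genes with promoter scores most like those of Runx1 and Runx2 were sought among the 3483 others with a peak in all 3 lists, by the distance between percentiles of the highest promoter score. Nearest to Runx1 was Mapkapk2, a stress kinase gene (V5 174, RNAPOL2 4099, H3K27ac 2789, distance 1.56 percentile points), followed by Gm26558 (184, 2868 and 3397, distance 1.77). Within 10 points there were 183 genes for Runx1 and 14 for Runx2. Nearest to Runx2 were Tmem176a and Tmem176b, which share 1 set of promoter peaks (230, 434 and 1816, distance 6.50). The likeness is over 3 lists and says nothing of function.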

How the data were processed

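The authors applied ChIP-seq to tumours with V5-tagged EWSR1::ATF1, with 4 labelled samples for each of V5, RNAPOL2 and H3K27ac and 4 inputs. The submitters' processing notes name BWA 0.7.10-r789 and MACS2 2.2.6 and the build mm10. Per the methods, peaks were called against input, with the broad option for H3K27ac, and ENCODE denylisted regions were removed. The deposited lists give a start, an end and a score for each peak. The score is a whole number set by the authors without a stated scale. Replicates were averaged for signal tracks, but how they were joined in the peak lists is not given in the sources used here. The methods name more samples than the labels for V5 and RNAPOL2, and the study also describes a larger V5 set that was not analysed here. The depth of each sample is not in the lists, so the precision of a score is unknown.

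Genes came from GENCODE vM21 (GRCm38, the assembly that mm10 names), and 0 peaks lay beyond a chromosome end. Sequence was read from GRCm38 in RefSeq. Overlap meant at least 1 bp. Motifs were searched on both strands. Computations used Python 3.11.15, numpy 2.4.6, pandas 2.3.3, scipy 1.17.1, pysam 0.24.0 and matplotlib 3.10.9, and the functions were tested on simulated data.

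The 4 genes and the gene lists were chosen with earlier results of these data known. With 1 list per antibody, counts were set beside the share over all coding genes or all peaks, and no test was made. The genes named were the 4 genes, coding genes with a TSS within 100 kb of theirs, the V5 peaks with the 3 highest scores within 100 kb of each, the 2 coding genes nearest in promoter percentiles to each gene with peaks in all lists and, of each list, up to 3 genes with the highest V5 promoter score and the genes without any promoter peak where these were 6 or fewer. Some genes that this rule names are not reported here. Other genes and peaks named were chosen after their values were seen. The alternatives were promoter windows, distances, overlap rules, score limits, peak centres and stitching distances.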

Additional observations from a re-analysis of the deposited data

How the results depend on the processing

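No paired analysis was possible because each antibody is represented by 1 peak list with no value per sample, and leaving out replicates was not possible for the same reason. Of 68 alternatives over 19 values, 48 left a count within 1.5 times its value, or a share within its 95% interval, and 20 moved it further. Keeping the upper 50% of each list by score left V5 at 0 of the 4 genes' promoters (0 of 7 promoters), with 4 V5 peaks in the bodies and 3 within 100 kb, of which 3 of 3 (100%) overlapped H3K27ac and 0% RNAPOL2, 1 held AP1 and 2 held a TGANNTCA variant. The same limit left 5 RNAPOL2 peaks in the bodies and 9 within 100 kb, and 10 and 17 H3K27ac peaks. Within 50 kb there were 7 V5, 26 RNAPOL2 and 23 H3K27ac peaks, and within 200 kb 23 V5 and 65 H3K27ac peaks. In the central 200 bp of the 12 V5 peaks within 100 kb, 0 held AP1 and 1 a variant, beside 5 and 4 in the whole peaks. Stitching over 5 kb left V5 in 1 of 2 clusters. The V5 promoter peaks thus all lie in the lower part of their list, and most RNAPOL2 peaks in Runx1 have low scores. A promoter without a peak may hold signal below the calling threshold, which the lists cannot show.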
